A study of Homo sapiens with 4 samples.

Results

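The 10 genes described here encode feedback inhibitors of RAS-MAPK signalling: the dual-specificity phosphatases DUSP1, DUSP4, DUSP5, DUSP6 and DUSP8, the Sprouty proteins SPRY1, SPRY2 and SPRY4, and the Sprouty-related proteins SPRED1 and SPRED2. They were chosen by name, and each was found once among the 58243 genes listed for every library. All 10 passed the filter on low counts, as did 14759 genes in all. The cells were SH-SY5Y, an established human neuroblastoma line that is a single subclone of a tumour-derived culture. The control group comprised 2 libraries from cells not given sodium nitroprusside (SNP), a donor of nitric oxide. The SNP group comprised 2 libraries from cells given SNP for 8 h. The labels speak of retinoic acid differentiated cells for the study as a whole, call the SNP state oxidized, and mention several SNP doses without saying which was sequenced. They do not say whether the control cells were also differentiated with retinoic acid. Libraries are lettered a and b within a group. Nothing says that they came from separate cultures, so the p-values measure only the spread between these libraries. In such bulk RNA, fewer cells of a type and less RNA per cell cannot be told apart.

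Growth factors activate receptor tyrosine kinases, which switch on RAS and then the kinases RAF, MEK and ERK in turn. Active ERK raises the transcription of its own inhibitors. DUSP proteins remove phosphate from MAP kinases in the nucleus or the cytoplasm, Sprouty proteins act near the receptor and RAF, and SPRED proteins bring the RAS-inactivating protein NF1 to the membrane. SH-SY5Y cells carry an activated form of the receptor ALK, and the transcripts of DUSP and Sprouty genes are widely used as a readout of such signalling.

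The summed gene counts lay between 5613144 and 8056550 per library, and 3 counts amounted to between 0.372 and 0.534 counts per 1000000 (CPM), a floor that covers counting error only. The CPM values of genes are scaled by TMM, a correction for library composition. Replicates differed by more than sampling noise, with a chi-square per degree of freedom of 3.002 for the control pair and 5.03 for the SNP pair. Of 13 adrenergic neuroblastoma markers, 12 passed the filter on low counts and TH, the tyrosine hydroxylase gene, was listed at 0 in every library. Of those 12, 3 rose and 7 fell in SNP libraries, with a median log2 fold change of -0.33. Among all genes tested, 13.6% rose and 12.6% fell, with a median of -0.0042. With offsets for gene length, GC content and guanine minus cytosine content, 3 markers rose and 3 fell and their median was -0.035. Of all genes, 18.8% were called with these offsets, with a median of -0.027. The adrenergic list summed to 3455 and 3548 CPM in control against 2791 and 2930 CPM in SNP libraries. The part of these values in the changes of the feedback genes was not tested. The 6 Schwann and glial markers summed to between 1.64 and 3.37 CPM and the 7 fibroblast, endothelial and immune markers to between 3.52 and 7.87 CPM, with SOX10, CDH5 and PTPRC at 0 throughout. Of 8 mesenchymal markers, 6 were tested and 1, VIM, fell. Their median log2 fold change was -0.31. The 8 summed to 545 and 585 CPM in control and to 467 and 462 CPM in SNP libraries. With the offsets for length, GC content and guanine minus cytosine content, 2 fell and the median was -0.19.

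Among the feedback genes, DUSP4 rose and SPRY4 fell, and the other 8 did not pass the test. The count of 2 called among 10 stands beside 26.2% of all genes tested that differed between SNP and control libraries (edgeR's quasi-likelihood test, adjusted p under 0.05 over all genes). DESeq2's Wald test called the same 2 members, against 18.9% of its genes. For single directions the shares of all genes were 13.6% higher and 12.6% lower. The log2 fold changes, SNP over control, ran from -0.52 to 0.85, 5 above 0 and 5 below. Their median was -0.05, against -0.0042 for all genes tested. The SNP values lay above both control values for 3 members, below both for 4, and overlapped the control values for 3; among all genes, 31.7% lay above, 32.3% below, and 64.0% did not overlap.

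**Figure D1:**
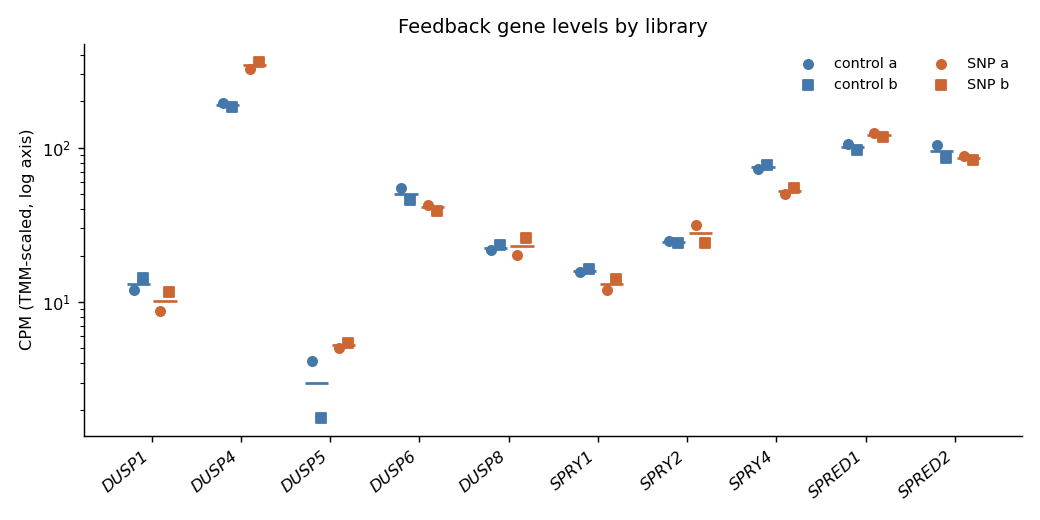
Levels of the 10 feedback genes in CPM on a log axis, with a point for each library (circles a, squares b) and a bar at each group mean; control is blue and SNP orange. DUSP4 is the most counted member, with means of 190.6 CPM (control) and 343.6 CPM (SNP), and DUSP5 the least counted.

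DUSP4 is a nuclear phosphatase of ERK and JNK whose own transcription is induced by ERK. Its gene (ENSG00000120875; chromosome 8, 29333064 to 29350668, minus strand, GRCh38 positions from GENCODE 29) is annotated with 6 merged exons, free of overlap with other genes. Control a held 196 CPM of DUSP4 and control b 185 CPM, while SNP a held 326 CPM and SNP b 361 CPM. Both SNP libraries stood well above both control libraries. DUSP4 rose 1.80-fold, or by 0.85 on the log2 scale (SE 0.098), at an adjusted p-value of 2.9e-06. Among all genes tested, this change lay at percentile 94.9. Over the 17 alternative fits the log2 fold change stayed between 0.78 and 0.92, with adjusted p-values from 2.0e-12 to 2.4e-05.

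DUSP1 and DUSP5 are the other nuclear phosphatases of the set. DUSP1, an immediate early phosphatase of p38 and JNK as well as ERK, held 11.9 CPM (control a), 14.2 CPM (control b), 8.69 CPM (SNP a) and 11.5 CPM (SNP b). The SNP values lay below both control values, SNP b by little. DUSP1 lies on chromosome 5, from 172768090 to 172771195, minus strand. For DUSP1 the fit gave a log2 fold change of -0.36 (SE 0.234; adjusted p-value 0.271).

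DUSP5 (chromosome 10, 110497838 to 110511544, plus strand), a phosphatase specific for ERK, had the fewest counts of the members. It drew 27 counts (control a), 10 counts (control b), 40 counts (SNP a) and 42 counts (SNP b). Control b stood apart, and the SNP libraries were close to each other. DUSP5 had a log2 fold change of 0.79 (SE 0.395; adjusted p-value 0.149). Without control a it was 1.55 with an adjusted p-value of 0.0345, and without control b it was 0.33 with an adjusted p-value of 0.681, so the value turned on which control library was kept.

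DUSP6 (chromosome 12, 89347232 to 89353271, minus strand), the cytoplasmic phosphatase specific for ERK, held 54.4 CPM (control a), 45.8 CPM (control b), 42.8 CPM (SNP a) and 39.2 CPM (SNP b). The SNP values were below the control values, and control b lay nearer to SNP a than to control a. DUSP6 had a log2 fold change of -0.29 (SE 0.137; adjusted p-value 0.122). DUSP6 shares 1875 of its 4632 exonic bases with other genes, the most with the antisense gene AC024909.2, which was listed at 0 in every library. Without stated use of strand, the reads of such partners cannot be told apart.

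DUSP8 (chromosome 11, 1554044 to 1571920, minus strand), a phosphatase of JNK and p38, held 21.7 CPM (control a), 23.3 CPM (control b), 20.3 CPM (SNP a) and 26.1 CPM (SNP b). The SNP libraries lay on either side of both control libraries. Between groups DUSP8 differed by 0.042 on the log2 scale (SE 0.178; adjusted p-value 0.891).

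The promoters of DUSP1 and DUSP8 are shown because both hold the whole cyclic AMP response element, the binding site of CREB and ATF factors, while neither transcript passed the test; that of SPRY2 is shown beside them for a window with only its core. The 250 bases before the RefSeq start are given 5′ to 3′ on the gene's strand (RefSeq, GRCh38.p14). The RefSeq start used lies 351 bases before the nearest GENCODE start for DUSP8 and 175 bases before it for SPRY2, and coincides with it for DUSP1. Capitals mark matches on either strand to the motifs searched. The SPRY2 windows before the RefSeq starts at 80339659 and 80340108 held no match and are not shown. The SPRY4 window, which also holds only the core, is not shown either.
DUSP1, chr5:172771196-172771445, minus strand: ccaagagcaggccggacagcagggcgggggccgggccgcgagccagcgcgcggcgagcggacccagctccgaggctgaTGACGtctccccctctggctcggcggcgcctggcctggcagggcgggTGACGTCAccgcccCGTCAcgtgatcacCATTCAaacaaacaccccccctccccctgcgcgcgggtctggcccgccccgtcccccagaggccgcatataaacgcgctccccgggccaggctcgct
DUSP8, chr11:1572272-1572521, minus strand: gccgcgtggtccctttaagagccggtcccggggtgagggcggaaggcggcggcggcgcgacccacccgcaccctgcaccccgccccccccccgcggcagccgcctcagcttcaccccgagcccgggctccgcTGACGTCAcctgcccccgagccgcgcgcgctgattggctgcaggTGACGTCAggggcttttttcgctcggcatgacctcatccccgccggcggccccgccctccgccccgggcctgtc
SPRY2, chr13:80341127-80341376, minus strand: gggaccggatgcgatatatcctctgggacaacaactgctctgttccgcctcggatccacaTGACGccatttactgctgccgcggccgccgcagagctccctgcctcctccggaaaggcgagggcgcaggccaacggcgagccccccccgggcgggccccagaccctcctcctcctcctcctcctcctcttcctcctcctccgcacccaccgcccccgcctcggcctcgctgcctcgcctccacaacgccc

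In the DUSP1 window the whole element TGACGTCA lay from -125 to -118, counted back from the last base before the RefSeq start, and in the DUSP8 window it lay from -118 to -111 and again from -74 to -67. The whole element, singled out after the windows were seen, was in 1.63% of all 34943 RefSeq windows of this length. Its core TGACG, on either strand and including the whole element, was in 4 of the 12 member windows, 1 each of DUSP1, DUSP8, SPRY2 and SPRY4, and in 21.2% of all windows. The ETS core CCGGAAG was in 1 of the 12, a SPRY1 window, against 8.48% of all windows. That window lies before the SPRY1 start at 123398386, inside the annotated gene, and the window before 123396795 held no match. The core TGAATG of the CIC site was in 3 of the 12, in windows of DUSP1, DUSP6 and SPRED2, against 9.91% of all windows. For SPRED2 it lay before the start at 65366778, inside the annotated gene, and the window before 65432599 held no match. The AP-1 site TGAGTCA and the serum response element were in none of the 12 member windows and in 4.22% and 1.16% of all windows. These matches describe the letters in the windows, which for DUSP4 and DUSP5 were not analysed here.

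Of the Sprouty genes, SPRY4, which binds RAF and TESK1, was the member that fell. Its gene (ENSG00000187678; chromosome 5, 142310427 to 142326455, minus strand) has 5 merged exons and shares no exonic base with another gene. SPRY4 held 73.1 CPM (control a), 77.2 CPM (control b), 49.98 CPM (SNP a) and 54.7 CPM (SNP b). The libraries of each group were close and the groups well apart. SPRY4 fell to 0.697 of its control level, a log2 fold change of -0.52 (SE 0.121; adjusted p-value 0.00294). It was -0.48 with an adjusted p-value of 0.0486 without control b. With offsets for gene length, GC content and guanine minus cytosine content the call was lost, at -0.18 with an adjusted p-value of 0.193.

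SPRY2 (chromosome 13, 80335976 to 80340951, minus strand), an inhibitor that binds GRB2 and CBL, held 24.8 CPM (control a), 23.97 CPM (control b), 31.6 CPM (SNP a) and 24.1 CPM (SNP b). SNP a was high and SNP b lay between the control values. SPRY2 had a log2 fold change of 0.19 (SE 0.172; adjusted p-value 0.447), and of -0.018 without SNP a.

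SPRY1 (chromosome 4, 123396795 to 123403760, plus strand), a relative of SPRY2 with a like place in the pathway, held 15.6 CPM (control a), 16.3 CPM (control b), 11.96 CPM (SNP a) and 14.003 CPM (SNP b). Its SNP values were below its control values. SPRY1 had a log2 fold change of -0.30 (SE 0.204; adjusted p-value 0.307).

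SPRED1 (chromosome 15, 38252326 to 38357249, plus strand), whose loss of function causes Legius syndrome, held 105.9 CPM (control a), 97.3 CPM (control b), 124 CPM (SNP a) and 118 CPM (SNP b). Both SNP values lay above both control values. SPRED1 had a log2 fold change of 0.25 (SE 0.108) and an adjusted p-value of 0.0889, the closest to the threshold among members that did not pass.

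SPRED2 (chromosome 2, 65310851 to 65432637, minus strand), its close relative, held 104 CPM (control a), 85.4 CPM (control b), 88.6 CPM (SNP a) and 83.2 CPM (SNP b). Control a was the high library, and the groups overlapped. SPRED2 had a log2 fold change of -0.14 (SE 0.118; adjusted p-value 0.408).

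**Figure D2:**
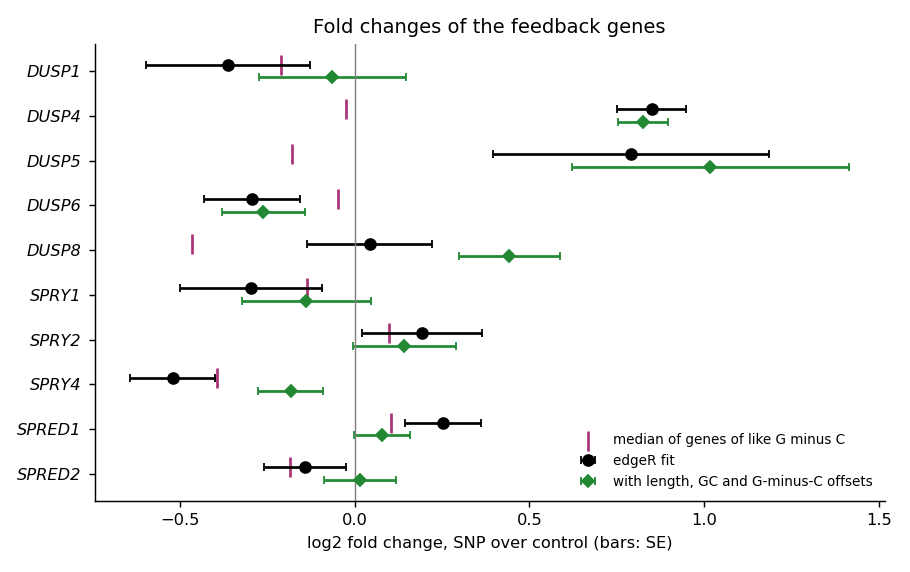
Log2 fold change of each feedback gene, SNP over control, with bars of 1 SE: black circles, the edgeR fit; green diamonds, the fit with offsets for gene length, GC content and guanine minus cytosine content; purple ticks, the median of genes of like guanine minus cytosine content. DUSP4 is at 0.85 and 0.83 in the fits, while SPRY4 moves from -0.52 to -0.18 and DUSP8 from 0.042 to 0.44.

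The members were compared with each other per length, on the deposited TPM scale. DUSP4 was the highest member in both groups, at 124 ± 3.67 TPM in control and 242 ± 25.2 TPM in SNP libraries (mean ± SD, n = 2 each). In control libraries SPRED2, SPRY4, SPRED1, DUSP6, SPRY2, DUSP1, DUSP8, SPRY1 and DUSP5 followed in that order, from 86.3 ± 10.8 TPM for SPRED2 to 5.32 ± 2.97 TPM for DUSP5 (SD, n = 2). The ranges of SPRY4 and SPRED1, at 59.6 and 57.9 TPM, overlapped, and those of the other neighbours did not. In SNP libraries SPRED1 followed SPRED2, at 74.9 ± 0.410 TPM (SD, n = 2). SPRY2, DUSP6 and SPRY4 were then level, at 46.7, 45.2 and 45.2 TPM with overlapping ranges, as were DUSP8 and DUSP1 at 25.7 TPM each.

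DUSP4 transcripts made up 25.0% and 25.1% of the summed TPM of the 10 genes in control a and b, and 37.8% and 40.5% in SNP a and b. The summed TPM of all 10 was 505 and 482 under control conditions and 594 and 642 under SNP. The SNP sums were higher, and the member that changed most was DUSP4, from 124 to 242 TPM on average. The Sprouty sum moved the other way, from 114 and 119 to 109 and 108 TPM. Within it the mean of SPRY4 went from 59.6 to 45.2 TPM and that of SPRY1 from 18.9 to 16.8 TPM. The mean of SPRY2 went up, from 37.8 to 46.7 TPM. The ratio of DUSP4 to DUSP6 in TPM was 2.30 and 2.58 in control and 4.87 and 5.88 in SNP libraries.

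**Figure D3:**
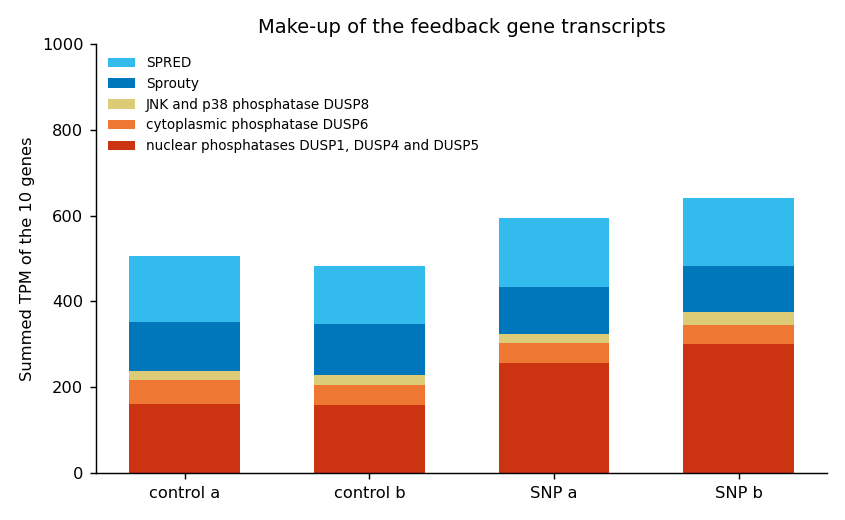
Summed TPM of the 10 feedback genes in each library, stacked by class; each bar is a library and the axis starts at 0. The nuclear phosphatases DUSP1, DUSP4 and DUSP5 hold 161 and 158 TPM in control a and b and 256 and 301 TPM in SNP a and b. Most of this class is DUSP4, with means of 124 TPM (control) and 242 TPM (SNP). The means are 30.4 and 25.7 TPM for DUSP1 and 5.32 and 10.3 TPM for DUSP5. Relative to control, SNP values of the members stand higher in TPM than in TMM-scaled CPM.

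The fold changes of all genes in these libraries moved with the base composition of their transcripts, and the members differ in that composition. Guanine minus cytosine was -6.01 percentage points in the annotated transcripts of DUSP8, at percentile 1.99 of the genes tested, and -3.87 points in those of SPRY4, at percentile 6.05. The highest members, SPRY2 and SPRED1, stood at 2.16 and 2.22 points, percentiles 67.4 and 68.5. DUSP4 was in the middle of the genes tested at 1.06 points, percentile 50.1. The 440 other genes within 0.5 percentage points of SPRY4 had a median log2 fold change of -0.39, near its own -0.52. The 2288 such genes around DUSP4 had a median of -0.026, far below its 0.85. Around DUSP8 the median of 138 genes was -0.47, against its own 0.042.

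With offsets for gene length, GC content and guanine minus cytosine content, 18.8% of all genes tested were called. DUSP4 rose by 0.83 (adjusted p-value 1.6e-05), DUSP8 passed at 0.44 (adjusted p-value 0.0493), and SPRY4 did not pass. With the replicate block added, the adjusted p-value of DUSP8 was 0.0602 and DUSP4 alone was called. With the same offsets SPRED1 stood at 0.078, SPRED2 at 0.015 and DUSP1 at -0.064.

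**Figure D4:**
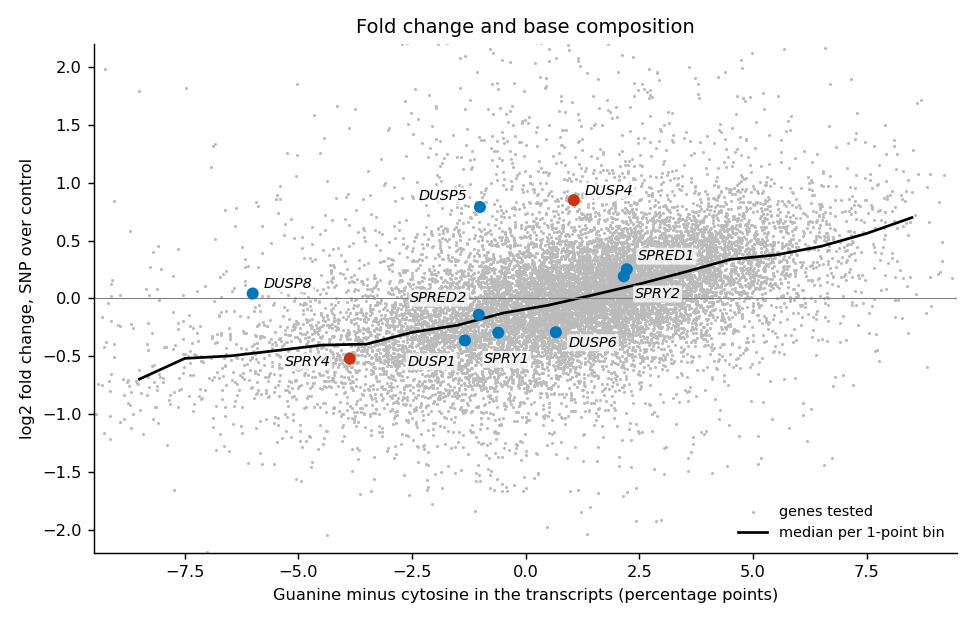
Log2 fold change, SNP over control, against guanine minus cytosine content of the transcripts in percentage points, for 14520 genes (grey; a further 204 lie outside the axes), with the median per bin (line) and the feedback genes marked (red, called; blue, not called). DUSP4 and DUSP5 lie far above the line, DUSP8 above it, and SPRY4 just below it.

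Likeness was measured over the 4 libraries. The genes whose 4 log2 CPM values, set to the control mean, lay closest to those of DUSP4 were ZBTB12, RFK and PHRF1, at Euclidean distances of 0.055, 0.062 and 0.066. Their own log2 fold changes were 0.89, 0.83 and 0.86. The closest to SPRY4 were ERGIC1, IQSEC1 and RNF25, at distances of 0.016, 0.025 and 0.031 and log2 fold changes of -0.52, -0.53 and -0.53. As these genes were picked by those same values, fold changes near those of DUSP4 and SPRY4 follow from the choice.

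Of the relatives outside the set (DUSP2, DUSP7, DUSP9, DUSP10, DUSP16, SPRY3 and SPRED3), 5 passed the filter and 1, DUSP7, fell. DUSP7, like DUSP6 a cytoplasmic phosphatase of ERK, went from 19.6 ± 2.41 to 13.4 ± 1.27 CPM (SD, n = 2 each), a log2 fold change of -0.55 with an adjusted p-value of 0.0442. All 5 fold changes were below 0, with a median of -0.24. With the base composition offsets that median was 6.5e-04 and DUSP7 did not pass (adjusted p-value 0.154). DUSP7 also did not pass without control a, control b or SNP a (adjusted p-values 0.0575, 0.311 and 0.147) or by DESeq2 (0.173).

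Of 14 other inhibitors of receptor and RAS signalling, 13 were tested, 1 rose, 1 fell and 11 did not pass, with a median log2 fold change of -0.11. IL17RD, which encodes the feedback inhibitor SEF, fell from 230 ± 26.8 to 133 ± 9.87 CPM (SD, n = 2 each). This was -0.79 on the log2 scale (adjusted p-value 1.9e-05), and -0.73 with the base composition offsets. RASA1, a RAS GTPase-activating protein, rose by 0.37 (adjusted p-value 0.0165); with those offsets it stood at 0.17 and did not pass. Nor did RASA1 pass without control a or control b, where it stood at 0.37 each time. It shares 771 exonic bases with other genes, the most with CCNH. The list's calls with the offsets were 2 falls, IL17RD and PEBP1, the latter an inhibitor of RAF outside the naming rule (up to 3 called genes a direction in each list, with at least 5 CPM on average). NF1, also outside it and the partner of the SPRED proteins, had a log2 fold change of -0.16 and an adjusted p-value of 0.181.

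Of 25 receptors and ligands upstream, 21 were tested, 3 rose and 4 fell, with a median of -0.18. EGFR fell from 334 ± 19.6 to 185 ± 8.93 CPM (SD, n = 2 each), a log2 fold change of -0.85 with an adjusted p-value of 2.6e-06. PDGFRB, the receptor for platelet-derived growth factor, and ALK fell by 0.91 and 0.38 on the log2 scale. RET, the receptor of the GDNF family and named after its value was seen, fell by 0.32. BDNF, the ligand of NTRK2, the angiogenic factor VEGFA and the receptor FGFR4 rose, by 1.09, 0.55 and 1.38; FGFR4 was outside the naming rule, at 2.32 ± 0.231 CPM in control libraries (SD, n = 2). ALK stood at -0.18 without SNP a (adjusted p-value 0.295), -0.23 without control b (0.27) and -0.62 without SNP b, and did not pass by DESeq2 (0.34). BDNF shares 701 exonic bases with other genes, the most with BDNF-AS. It stood at 0.66 without SNP b and did not pass there, nor by DESeq2 (adjusted p-value 0.0662). With the base composition offsets ALK, RET, BDNF and VEGFA did not pass, and the list held 1 rise, FGFR4, and 3 falls, EGFR, PDGFRB and the insulin receptor gene INSR, which is outside the naming rule.

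All 21 genes of the RAS to ERK cascade were tested; 5 rose, 2 fell and 14 did not pass, with a median of 0.0023. HRAS, a RAS GTPase, rose from 8.95 ± 0.656 to 16.2 ± 1.06 CPM (SD, n = 2 each), and FRS2, the adaptor of FGF receptors, rose by 0.51 on the log2 scale. NRAS, PTPN11 and RPS6KA3 rose by 0.35, 0.29 and 0.35, PTPN11 and RPS6KA3 being named after their values were seen. MAP2K2, which encodes MEK2, fell by 0.72 and ARAF, a RAF kinase, fell by 0.56. With the base composition offsets HRAS, FRS2 and MAP2K2 passed and the other 4 did not. Calls ended for HRAS without control a (adjusted p-value 0.0528), FRS2 without control b (0.0544), NRAS without control a, control b or SNP a (0.236, 0.0828 and 0.124) and ARAF without the same libraries (0.0766, 0.157 and 0.11). MAPK3, which encodes an ERK kinase and is outside the naming rule, had a log2 fold change of -0.056 and did not pass.

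The JNK and p38 cascade holds the main substrates of DUSP8 and DUSP1. Of its 16 genes, all tested, 3 rose and 3 fell, with a median of -0.07. MAP2K6, a kinase that activates p38, fell from 42.6 ± 0.781 to 15.5 ± 2.84 CPM (SD, n = 2 each), a log2 fold change of -1.46 with an adjusted p-value of 3.0e-06. MAPK10, the neuronal JNK, fell by 0.72, and MAP2K3, outside the naming rule and below 5 CPM on average, fell by 1.17. The p38 genes MAPK11 and MAPK12 rose by 0.73 and 0.42, and MAP3K1 rose by 0.27. MAPK12 shares 2763 exonic bases with other genes, the most with HDAC10. MAPK10 shares 1310 with other genes, the most with ARHGAP24, so the division of the reads of both is uncertain. MAP2K3, MAPK12 and MAP3K1 did not pass with the base composition offsets. MAPK12 stood at 0.21 without control a (adjusted p-value 0.519), 0.26 without SNP b (0.227) and 0.66 without control b. MAPK11 did not pass without control a (0.0721), nor MAP3K1 without control a, control b or SNP a (0.0674, 0.0744 and 0.0795).

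Of 10 transcription factors of the ERK response, 1 rose, 1 fell and 8 did not pass, with a median of 0.10. SRF, the factor of the serum response element, rose by 0.57 on the log2 scale (adjusted p-value 0.00657) and its partner ELK1 fell by 0.49 (adjusted p-value 0.0326). With the base composition offsets SRF stood at 0.56 and passed, and ELK1 stood at -0.046 and did not. SRF did not pass without control a (adjusted p-value 0.0585) or control b (0.0538), nor ELK1 without control a, control b or SNP a (0.143, 0.117 and 0.171). CIC, a repressor that ERK inactivates and outside the naming rule, had a log2 fold change of -0.20 and an adjusted p-value of 0.202.

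Other ERK target transcripts moved both ways. Of 22 listed, 18 were tested, 4 rose, 4 fell and 10 did not pass, with a median of 0.31; EPHA4 and AREG were listed at 0 in every library. ETV4 and ETV5, ETS factors induced by ERK, fell by 1.29 and 0.70 on the log2 scale, ETV5 being named after its value was seen. ETV4 went from 51.2 ± 2.41 to 20.9 ± 0.346 CPM (SD, n = 2 each; adjusted p-value 2.6e-06). MYC, a growth-promoting factor, fell by 1.04 and EGR1, an immediate early factor, fell by 1.00. In the other direction EPHA2, an ephrin receptor, rose by 1.32, IER2 by 1.16 and MCL1, a survival protein, by 0.45. IER2 shares 946 of its 3072 exonic bases with other genes, the most with AC011446.2. FOSL1, outside the naming rule, rose by 1.98 from 0.841 ± 0.317 CPM (SD, n = 2). EGR1 and MCL1 did not pass with the base composition offsets, and the other 6 did. Outside the naming rule, VGF, CCND1 and LIF passed with those offsets, at 0.27, 0.20 and 0.64, so that the list then held 6 rises and 3 falls.

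**Figure D5:**
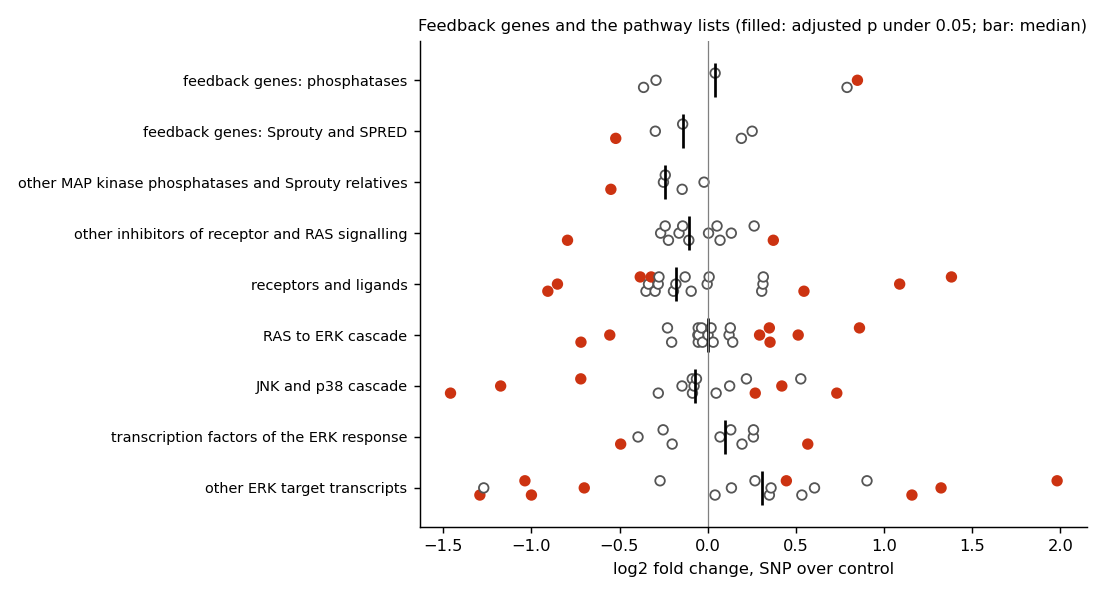
Log2 fold changes, SNP over control, of the tested genes of the feedback set, split into phosphatases and Sprouty with SPRED genes, and of 7 pathway lists; each circle is a gene, filled where the adjusted p-value was under 0.05, and the bar is the median of the list. DUSP4 at 0.85 and SPRY4 at -0.52 are the filled circles of the feedback set, and the ERK target list spreads from -1.29 to 1.98.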

How the data were processed

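RNA was profiled in 4 libraries of SH-SY5Y cells, 2 control and 2 SNP, grouped by the sample titles. Per the labels, reads were 75 bp at 40 M reads per sample, and per the submitters' processing notes the build was GRCh38; aligner, counter, annotation and use of strand are not given in the sources used here. The authors deposited unnormalized read counts, TPM values scaled to 1000000 per library, and RPKM values whose read total exceeds the summed counts, per the file headers and column sums.

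Low counts were filtered with edgeR 4.0.16 in R 4.3.3 (filterByExpr, at least 10 counts, total at least 15). After TMM scaling, SNP was compared with control by edgeR's quasi-likelihood test, without covariates. Benjamini-Hochberg adjustment covered 14759 genes at a threshold of 0.05; adjusted p-values are from this test unless another is named. Standard errors came from the fold change and the F statistic. TPM served to compare levels between genes and to sum the members in each library, and RPKM served to obtain read totals. Positions, exon overlaps on either strand and base composition over all annotated transcripts came from GENCODE 29, which held 57980 of the identifiers. Offsets for composition were lowess curves fitted in each library (span 0.5, 3 iterations, 3 cycles). Alternatives included DESeq2 1.42.0 and limma 3.58.1 (voom). The scripts were tested on simulated counts. The members, lists and alternatives were chosen with earlier results of these data known. All members were named; from each other list, up to 3 genes per direction with the largest change among those called with at least 5 CPM on average; any other gene is said to be outside this rule. The named neighbours in pattern were the 3 closest for the DUSP and for the Sprouty or SPRED gene of largest change.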

Additional observations from a re-analysis of the deposited data

How the results depend on the processing

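The 2 feedback genes called became 0 when the change also had to reach 1 on the log2 scale either way, and 1, DUSP4, with offsets for length, GC and guanine minus cytosine content together with the replicate block. With each library left out in turn, between 2 and 3 members were called, and DUSP4 and SPRY4 were called each time. The 3861 genes called among all genes became 2415 with DESeq2's Wald test, 2018 among genes without exonic overlap, 2224 at an adjusted p-value under 0.01 and 647 with a change of 1 or more on the log2 scale. Leaving out each library in turn gave between 2447 and 4144. Scaled to RPKM read totals, 2085 genes were higher and 1218 lower, against 2002 and 1859. The replicate block gave 4487 genes and left the 2 members called; across genes, the deviations of same-lettered libraries correlated at 0.050, so the letters were not treated as pairs. Changes of direction were found for members that did not pass. With 1 library left out, DUSP8 ranged from -0.15 (without SNP b) to 0.21, and stood at -0.011 without control a. SPRY2 ranged from -0.018 (without SNP a) to 0.38, and SPRED2 from -0.27 to 0.0047 (without control a). SPRED2 stood at 0.015 with the guanine minus cytosine offsets and 0.021 with these and the replicate block. The causes were not tested. Of 545 refits of 33 other named genes, 463 kept their call and 82 lost it, and none turned direction. DUSP5 had between 10 and 42 counts per library, the fewest of the members.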

Other observations

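A further 14 DUSP genes, the atypical phosphatases among them, are in the tables and fall outside the lists above; they were chosen after the data were seen. Of these, 10 were tested, 1 fell and 9 did not pass in edgeR's quasi-likelihood test. DUSP18 fell from 66 and 53 counts in the control libraries to 35 and 41 in the SNP libraries, a log2 fold change of -1.01 (SE 0.281; adjusted p-value 0.0108). DUSP18 shares 1694 of its 4450 exonic bases with other genes, the most with SLC35E4, so the division of these reads is uncertain. With the base composition offsets its adjusted p-value was 0.0702. DUSP3, which dephosphorylates ERK and JNK, drew 210 (control a), 209 (control b), 313 (SNP a) and 280 (SNP b) counts, a log2 fold change of 0.13 after scaling (adjusted p-value 0.565).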
